A study of Mus musculus with 12 samples.

Results

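The 32 genes described here are transcripts that astrocytes make more of when they become reactive, and they were taken by symbol from the 52459 genes in the count tables. They fall into 3 classes by earlier studies of injured or inflamed mouse brain. The pan-reactive class has 12 genes, the A1 class 8 and the A2 class 12. RNA was sequenced from whole cerebellum (Cb) and from forebrain with midbrain (F/M) of male mice aged 4 months. Mice homozygous for a *Tpp1* allele disrupted by gene targeting (*Tpp1*-/-, group T) were compared with wild-type controls (group N), and the line was kept by crossing heterozygotes. Each of the 4 groups (Cb-N, Cb-T, F/M-N and F/M-T) held 3 libraries, and nothing was purified before extraction, so a value describes a tissue and not a cell type. The loss of *Tpp1* is present in every cell of the body, and mice of this line were near the end of life at this age. *Tpp1*, which encodes the lysosomal enzyme tripeptidyl peptidase 1, itself fell by 1.91 on the log2 scale in Cb (CPM [read counts scaled to library size] of 112, 114 and 112 in Cb-N against 28.0, 31.0 and 30.0 in Cb-T) and by 1.94 in F/M, so that all 12 libraries matched their genotype labels.

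Astrocytes supply neurons with metabolites, clear glutamate and potassium, and line vessels and the brain surface with their end feet. After damage or inflammation they enlarge, build more intermediate filaments and secrete protease inhibitors, complement factors and matrix proteins. The pan-reactive genes were defined as those induced by both ischemia and bacterial endotoxin. A1 genes were induced mainly by endotoxin and are linked to IL-1α, TNF and C1q released from microglia, whereas A2 genes were induced mainly by ischemia. Many of the 32 genes are also made by other cells: *Cd14* and *Srgn* by microglia and macrophages, *Tm4sf1*, *Emp1* and *Fbln5* by vascular cells, *Ptgs2* by forebrain neurons and *B3gnt5* by several cell types. In whole tissue, fewer cells of a type and less RNA per cell cannot be told apart, and the same holds for increases.

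Promoter windows of 6 members called in Cb are given first, because transcription factors of the interferon, cytokine and stress pathways act through short motifs in such windows. They were chosen after a search for such motifs, as examples that hold a match. The windows of *Aspg* and *Timp1*, which were called in both areas, held none and are not printed. RefSeq sequence of build GRCm38.p6, from 250 bases before to 50 bases after a start site, was at hand for 27 of the 32 members. Capitals mark a match to the motif named in each case, on either strand.
*Gfap*, chr11:102897151-102897450, minus strand: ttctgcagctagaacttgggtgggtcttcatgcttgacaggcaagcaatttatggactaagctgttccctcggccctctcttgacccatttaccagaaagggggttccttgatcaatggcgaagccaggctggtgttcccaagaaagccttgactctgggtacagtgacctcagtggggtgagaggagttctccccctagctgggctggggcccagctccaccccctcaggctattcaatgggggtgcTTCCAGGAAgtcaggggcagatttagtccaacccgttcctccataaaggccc (a STAT motif, TTCNNNGAA).
*Serpina3n*, chr12:104406458-104406757, plus strand: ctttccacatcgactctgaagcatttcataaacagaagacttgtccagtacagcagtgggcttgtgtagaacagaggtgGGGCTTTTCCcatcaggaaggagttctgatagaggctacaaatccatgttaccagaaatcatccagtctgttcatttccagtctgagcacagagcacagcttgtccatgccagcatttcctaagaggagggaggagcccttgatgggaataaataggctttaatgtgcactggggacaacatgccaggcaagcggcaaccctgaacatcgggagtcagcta (an NF-kB motif, GGG and TTTCC with 2 bases between).
*Osmr*, chr15:6874264-6874563, minus strand: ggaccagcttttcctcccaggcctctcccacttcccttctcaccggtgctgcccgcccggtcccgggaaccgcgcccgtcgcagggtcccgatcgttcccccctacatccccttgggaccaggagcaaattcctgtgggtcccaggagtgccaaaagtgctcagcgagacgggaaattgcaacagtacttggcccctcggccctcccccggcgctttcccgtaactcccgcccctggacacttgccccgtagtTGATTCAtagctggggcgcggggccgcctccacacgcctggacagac (an AP-1 motif, TGANTCA).
*H2-T23*, chr17:36032652-36032951, minus strand: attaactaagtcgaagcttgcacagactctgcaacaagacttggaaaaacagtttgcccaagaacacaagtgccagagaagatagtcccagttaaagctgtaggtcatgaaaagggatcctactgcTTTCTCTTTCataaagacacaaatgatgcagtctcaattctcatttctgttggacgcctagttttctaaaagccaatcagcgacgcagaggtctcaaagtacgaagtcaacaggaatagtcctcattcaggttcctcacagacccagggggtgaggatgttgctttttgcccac (an interferon-stimulated response element [ISRE], here GAAA repeated with 2 bases between, read on the other strand).
*Gbp2*, chr3:142620413-142620712, plus strand: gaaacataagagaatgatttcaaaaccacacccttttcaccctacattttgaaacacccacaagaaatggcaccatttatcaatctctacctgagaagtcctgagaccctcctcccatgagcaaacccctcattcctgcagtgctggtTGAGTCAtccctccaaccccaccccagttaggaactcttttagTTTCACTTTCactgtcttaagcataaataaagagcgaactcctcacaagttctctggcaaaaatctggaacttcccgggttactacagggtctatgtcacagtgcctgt (the same ISRE on the other strand, preceded by an AP-1 motif).
*Fbln5*, chr12:101818435-101818734, minus strand: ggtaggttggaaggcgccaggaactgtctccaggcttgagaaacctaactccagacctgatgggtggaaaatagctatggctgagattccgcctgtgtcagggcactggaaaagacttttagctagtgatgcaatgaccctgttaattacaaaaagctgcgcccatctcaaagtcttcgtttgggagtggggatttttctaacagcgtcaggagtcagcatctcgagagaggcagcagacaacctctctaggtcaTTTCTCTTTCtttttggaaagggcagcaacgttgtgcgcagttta (the same ISRE on the other strand).
The ISRE was found in the windows of 6 of the 27 members, against 3.44% of 32851 promoters of the same length, and 4 of these 6 were A1 genes (*H2-T23*, *Gbp2*, *Fbln5* and *Srgn*) out of 7 A1 genes with a window. The NF-kB motif was found in 3 members, *Vim*, *Serpina3n* and *Steap4*, all pan-reactive, against 1.63% of all promoters. The STAT motif was found in 5 members (8.3% of all promoters) and the AP-1 motif in 5 (7.81%), with *Sphk1* and *Emp1* holding both and a copy of each overlapping in *Emp1*. The heat shock motif (GAA, TTC and GAA, each 2 bases apart) was found in no member and in 0.603% of all promoters. A member was counted when any of its windows matched, whereas the shares are over single windows. A gene with several windows has more room for a match, so these counts and shares are not like for like. These matches describe letters in a window and not bound sites.

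Some of the reactive astrocyte genes were higher in *Tpp1*-/- brain, 19 of 31 tested in Cb and 7 of 28 tested in F/M. A gene was called when the edgeR quasi-likelihood test gave a false discovery rate (FDR, adjusted over all genes tested) under 0.1 and the change was at least 1.5-fold. In Cb, 31 of the 32 members had enough reads to be tested, and 19 were higher in Cb-T, none was lower and 12 were not called. Of the 16382 genes tested in Cb, 8.54% were called higher, 2.66% lower and 11.2% in either direction. The median log2 fold change was 0.97 over the 31 members and 0.01 over all genes. In F/M, 28 members were tested, 7 were higher, 1 (*Hspb1*) was lower and 20 were not called, beside a background of 2.63% higher, 0.858% lower and 3.49% in either direction among 16665 genes. There the median was 0.26 over the members and 0.01 over all genes. All 3 Cb-T libraries also held transcripts of Hox genes, which mark hindbrain and not cerebellum (summed CPM of 13.7 to 14.5, against 0.325 to 0.550 in Cb-N), and genes of the olfactory bulb were lower in F/M-T (summed CPM of 126 to 127, against 169 to 172 in F/M-N), so in both areas the tissue taken and the genotype cannot be told apart.

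By class, the pan-reactive genes had the most calls and the highest median in both areas. In Cb, 9 of 12 pan-reactive, 4 of 8 A1 and 6 of 11 tested A2 genes were higher, with median log2 fold changes of 1.63, 0.64 and 0.63. In F/M, 5 of 11 tested pan-reactive genes, 1 of 8 A1 genes and 1 of 9 tested A2 genes were higher, with medians of 0.63, 0.20 and 0.08. Some members passed the filter on low counts only through the mutant libraries, namely *Timp1*, *Lcn2*, *Tgm1* and *Ptx3* in Cb and *Timp1* and *Steap4* in F/M, so that those called had to differ. Over the members whose control libraries alone pass it, 15 of 27 were higher in Cb (7 of 10 pan-reactive, 4 of 8 A1 and 4 of 9 A2 genes, with medians of 1.35, 0.64 and 0.38), beside 6.34% of all such genes. In F/M, 6 of 26 were higher (4 of 9 pan-reactive, 1 of 8 A1 and 1 of 9 A2 genes, with medians of 0.38, 0.20 and 0.08), beside 2.02%. The 7 members higher in both areas were *Gfap*, *Serpina3n*, *Aspg*, *Osmr*, *Timp1*, *Gbp2* and *Cd14*, where 1.69% of the 15706 genes tested in both areas were called higher in both. Of the 7, *Timp1* passed the filter only through the mutants in both areas, and no share was computed over genes passing by controls in both. Another 12 members were higher in Cb and not called in F/M, of which 3 (*Lcn2*, *Tgm1* and *Ptx3*) were too low to be tested in F/M. The share of all genes with that pattern of calls was not computed, so the 12 cannot be set against a background. No member was called in F/M alone except *Hspb1*. Of the 28 members tested in both areas, 25 had the larger log2 fold change in Cb, and the exceptions were *Vim*, *Clcf1* and *B3gnt5*. That share was not computed over all genes, of which more were likewise called higher in Cb (8.54%) than in F/M (2.63%).

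**Figure D1:**
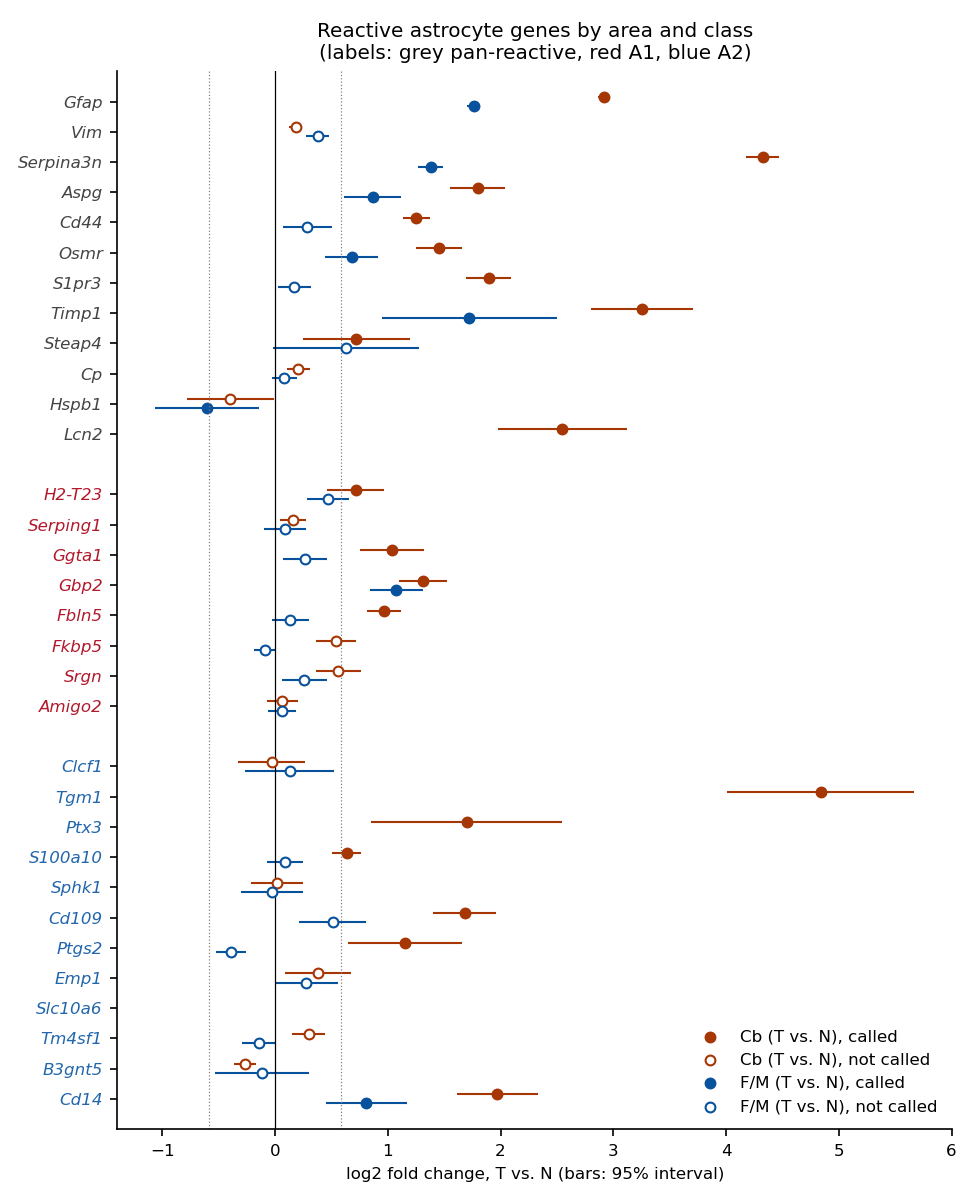
Log2 fold change of each member, T against N, in Cb (brown) and F/M (blue), with 95% intervals as bars. Filled points were called, open points were not, dotted lines mark 1.5-fold and members without a point were not tested. In Cb, 19 members lie to the right of the upper dotted line as filled points, against 7 in F/M.

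The intermediate filament genes of astrocytes, *Gfap* and *Vim*, did not move alike. *Gfap* encodes the filament protein by which reactive astrocytes are usually recognized. It stood at 155, 152 and 152 CPM in the Cb-N libraries and at 1142, 1145 and 1137 CPM in Cb-T. In F/M, it stood at 183, 183 and 188 CPM in the controls and at 614, 603 and 621 CPM in F/M-T. Every mutant library was thus far above every control library, and replicates lay within a few percent of each other. The log2 fold change was 2.91 ± 0.02 (SE) in Cb and 1.76 ± 0.03 in F/M (edgeR FDR = 1.2e-50 and 1.2e-19), or 7.53-fold and 3.39-fold. *Vim* encodes vimentin, which is also made by radial glia, vessels and ependyma. It measured 194, 197 and 208 CPM in Cb-N and 234, 217 and 225 CPM in Cb-T. In F/M, it measured 35.6, 35.9 and 40.0 CPM in controls and 47.4, 45.9 and 48.6 CPM in mutants. The groups did not overlap in either area, but the log2 fold changes of 0.18 and 0.38 were under the 1.5-fold limit (FDR = 7.99e-07 and 2.16e-05). For *Vim* the F/M value was the larger, and the difference between areas was also under the limit (-0.17, FDR = 0.0341).

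The share of *Gfap* in the reads of its class was larger in mutants than in controls in both areas. Such sums weight each gene by the length of its transcript. *Gfap* supplied 36.1% to 37.4% of the summed CPM of the 12 pan-reactive genes in Cb-N but 73.4% to 74.3% in Cb-T. In F/M, its share was 61.7% to 63.1% in controls and 78.9% to 79.3% in mutants. The other 11 genes of the class together summed to 259 to 269 CPM in Cb-N and reached 396 to 412 CPM in Cb-T, while the F/M sums were 107 to 117 CPM in controls and 161 to 163 CPM in mutants.

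Secreted inhibitors and acute phase proteins included the members of the class with the highest fold changes in Cb. *Serpina3n* encodes a secreted serine protease inhibitor. It measured 3.59, 4.03 and 2.55 CPM in Cb-N and 65.4, 67.7 and 69.7 CPM in Cb-T. In F/M, it measured 19.7, 19.1 and 21.8 CPM in controls and 53.7, 50.1 and 50.3 CPM in mutants. The control levels of the areas were far apart and the mutant levels close, so that the log2 fold change was 4.33 ± 0.08 in Cb and 1.38 ± 0.06 in F/M. *Serpina3n* has near copies in a gene cluster on chromosome 12, and how reads matching several copies were treated is not given in the sources used here. *Timp1*, an inhibitor of matrix metalloproteinases, was at 0.266, 0.733 and 0.371 CPM in Cb-N and at 4.55, 4.07 and 4.43 CPM in Cb-T. In F/M, its values were 0.173, 0.270 and 0.169 CPM in controls and 0.788, 0.579 and 0.642 CPM in mutants. Groups were separate in both areas, with log2 fold changes of 3.25 ± 0.23 and 1.72 ± 0.40 (FDR = 6.3e-16 and 0.00384), although only 14 reads in all lay behind the F/M controls and DESeq2 gave the F/M change no adjusted p, so that it was not called there.

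*Lcn2* encodes lipocalin 2, which binds bacterial iron carriers. It was at 0.532, 0.413 and 0.139 CPM in Cb-N and at 1.98, 2.13 and 2.28 CPM in Cb-T, with no overlap (log2 fold change 2.55 ± 0.29, FDR = 6.65e-10). In F/M it was too low to be tested, at 0.130 to 0.296 CPM in controls and 0.166 to 0.438 CPM in mutants, and those groups overlapped. The ratio of summed counts there was 1.43 (95% interval 0.671 to 3.15, counting error only), so a change was not detectable at this depth. *Cp*, the copper-carrying ferroxidase ceruloplasmin, was well expressed (24.5 to 38.2 CPM over all libraries) and changed little, with log2 fold changes of 0.21 in Cb (FDR = 0.000539, under the fold limit) and 0.08 in F/M (FDR = 0.348).

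Cell-surface receptors of the pan-reactive class were higher in Cb, and of these *Osmr* was also higher in F/M. *Osmr* encodes the receptor chain for oncostatin M, which signals through STAT3. Its values were 4.52, 4.45 and 3.66 CPM in Cb-N and 10.9, 10.9 and 12.5 CPM in Cb-T. In F/M, they were 4.81, 7.47 and 5.67 CPM in controls and 9.63, 9.06 and 9.33 CPM in mutants. No mutant library fell into the control range, and the log2 fold change was 1.45 ± 0.11 in Cb and 0.68 ± 0.12 in F/M (FDR = 1.45e-15 and 0.000356). The F/M call rested on the fold limit: without F/M-N replicate 1, the lowest control, the value was 0.54. *S1pr3*, a receptor for sphingosine 1-phosphate, measured 3.33, 4.63 and 4.64 CPM in Cb-N and 15.4, 16.1 and 14.9 CPM in Cb-T. In F/M, it measured 10.4, 10.6 and 10.9 CPM in controls and 11.4, 11.6 and 12.1 CPM in mutants. The change was thus 3.72-fold in Cb and 1.13-fold in F/M (FDR = 4.84e-20 and 0.122). *Cd44*, the hyaluronan receptor, stood at 14.0, 12.97 and 13.1 CPM in Cb-N and at 31.2, 31.2 and 32.1 CPM in Cb-T, for a value of 1.25 ± 0.06 on the log2 scale. In F/M, the *Cd44* groups overlapped, at 5.90, 7.07 and 7.53 CPM in controls and 8.05, 9.19 and 7.19 CPM in mutants (log2 fold change 0.29, FDR = 0.0744).

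The remaining pan-reactive genes are an enzyme, a reductase and a chaperone. *Aspg*, an asparaginase, was at 2.17, 2.61 and 2.41 CPM in Cb-N and at 8.14, 7.93 and 8.74 CPM in Cb-T. In F/M, it was at 2.99, 2.93 and 3.60 CPM in controls and at 5.60, 6.08 and 5.31 CPM in mutants. Mutants were above controls throughout, by 3.48-fold in Cb and 1.82-fold in F/M (FDR = 4.08e-16 and 5.82e-05). *Steap4*, a metalloreductase, was at 0.931, 1.15 and 0.974 CPM in Cb-N and at 1.48, 1.33 and 2.20 CPM in Cb-T. Its call in Cb (log2 fold change 0.72, FDR = 0.0112) was lost without Cb-T replicate 3, the highest library (0.47, FDR = 0.154). In F/M, its log2 fold change was 0.63 and did not pass (FDR = 0.195). *Hspb1*, which encodes the small heat shock protein HSP27, was the only member called lower. It was at 1.344, 1.2603 and 1.566 CPM in F/M-N and at 1.01, 0.869 and 0.813 CPM in F/M-T, without overlap (log2 fold change -0.60, FDR = 0.0768). That call was lost under DESeq2 (FDR = 0.242), without the filter on low counts (0.102) and on leaving out any library but F/M-N replicate 2. In Cb, *Hspb1* had 2.53, 1.88 and 1.99 CPM in controls and 1.52, 1.73 and 1.57 CPM in mutants, and its log2 fold change of -0.40 was under the limit.

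**Figure D2:**
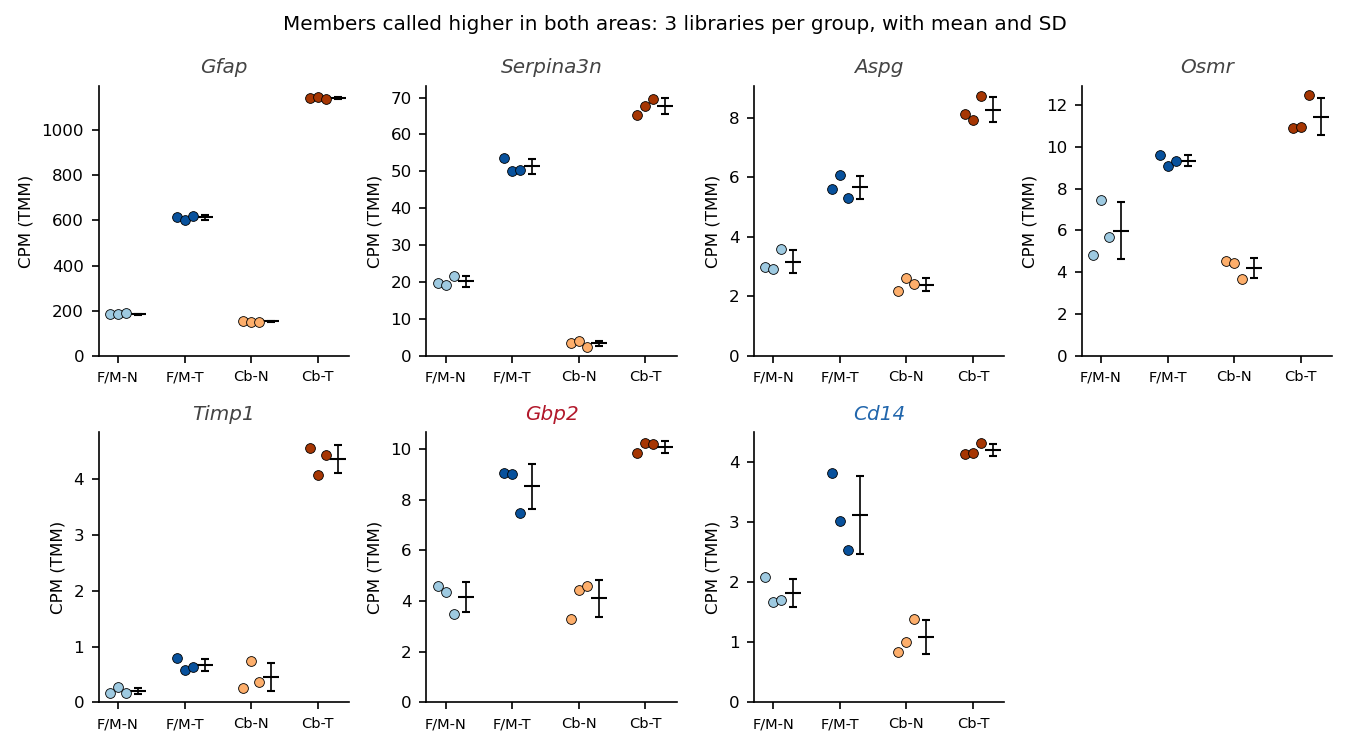
CPM of the 7 members called higher in both areas, for the 3 libraries of each group, with the group mean and SD as a bar to the right of the points. All axes start at 0. The mutant libraries lie above the control libraries of their area in every panel, and Cb-T above F/M-T in every panel.

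Of the 8 A1 genes, 4 were called higher in Cb and 1 in F/M. *Gbp2*, an interferon-induced GTPase, was the A1 gene called in both areas. Its values were 3.28, 4.45 and 4.59 CPM in Cb-N and 9.82, 10.2 and 10.2 CPM in Cb-T. In F/M, they were 4.60, 4.37 and 3.47 CPM in controls and 9.06, 9.02 and 7.49 CPM in mutants. The increase was of similar size, 2.48-fold in Cb and 2.11-fold in F/M (FDR = 1.28e-13 and 1.84e-06), and the difference between areas was 0.26 on the log2 scale (95% interval -0.08 to 0.59, FDR = 0.327). *H2-T23*, a nonclassical class I MHC gene, was at 3.50, 3.62 and 4.59 CPM in Cb-N and at 7.29, 5.998 and 5.76 CPM in Cb-T. In F/M, it was at 7.98, 6.84 and 8.63 CPM in controls and at 11.0, 10.1 and 10.7 CPM in mutants. Neither area showed overlap, and the log2 fold change of 0.71 was called in Cb, whereas 0.47 in F/M was under the fold limit (FDR = 7.28e-06 and 0.00133). *Gbp2* and *H2-T23* belong to families of near-identical genes, so their counts are uncertain in the same way as those of *Serpina3n*. *Serping1*, the inhibitor of complement C1, was not called, with log2 fold changes of 0.16 in Cb (FDR = 0.0198) and 0.09 in F/M (FDR = 0.55).

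*Ggta1* and *Fbln5* were higher in Cb. *Ggta1*, an enzyme that adds galactose to surface glycans, measured 2.08, 2.75 and 2.32 CPM in Cb-N and 4.89, 4.55 and 5.09 CPM in Cb-T, a 2.05-fold change (FDR = 6.99e-08). In F/M, it measured 6.94, 6.80 and 6.81 CPM in controls and 6.96, 8.49 and 8.69 CPM in mutants, and its log2 fold change of 0.27 was under the limit. *Fbln5*, an elastic fiber protein, had 9.14, 9.76 and 9.65 CPM in Cb-N and 18.9, 19.3 and 17.1 CPM in Cb-T. In F/M, the groups overlapped, at 9.41, 8.73 and 9.06 CPM in controls and 9.98, 10.1 and 9.12 CPM in mutants. The log2 fold change of *Fbln5* was 0.97 ± 0.08 in Cb and 0.14 ± 0.08 in F/M (FDR = 2.04e-14 and 0.278).

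The last A1 genes were near or under the limit. *Fkbp5*, a co-chaperone of the glucocorticoid receptor that glucocorticoids induce, was at 7.14, 7.11 and 8.02 CPM in Cb-N and at 10.1, 10.9 and 11.0 CPM in Cb-T. In F/M, it was at 36.2, 36.9 and 35.5 CPM in controls and at 33.5, 32.2 and 34.1 CPM in mutants. The groups did not overlap in either area but lay in opposite order, with log2 fold changes of 0.54 in Cb (FDR = 2.84e-06, under the fold limit) and -0.09 in F/M (FDR = 0.217). *Srgn*, the proteoglycan core of secretory granules, had a log2 fold change of 0.56 in Cb and 0.26 in F/M, both under the fold limit (FDR = 9.05e-06 and 0.0732). *Amigo2*, a neuronal adhesion molecule, was at 15.3 to 20.3 CPM in all 12 libraries, with log2 fold changes of 0.07 in Cb (95% interval -0.07 to 0.20) and 0.06 in F/M (-0.07 to 0.18).

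Among the 12 A2 genes, *Cd14* was called in both areas. *Cd14* encodes a coreceptor for endotoxin. It was at 0.843, 1.01 and 1.39 CPM in Cb-N and at 4.13, 4.15 and 4.31 CPM in Cb-T. In F/M, it was at 2.08, 1.67 and 1.69 CPM in controls and at 3.81, 3.02 and 2.53 CPM in mutants. Groups were separate, by 3.92-fold in Cb and 1.75-fold in F/M (FDR = 2.43e-12 and 0.00356). The 12 microglial marker genes had summed levels of 164 to 172 CPM in the Cb controls, 521 to 538 CPM in the Cb mutants, 469 to 481 CPM in the F/M controls and 689 to 693 CPM in the F/M mutants. Their part in the change of *Cd14* was not tested.

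Transglutaminase 1 (*Tgm1*), which cross-links proteins, had the highest estimated ratio of all members, from almost no reads in controls. It had 0.0887, 0.0458 and 0.0464 CPM in Cb-N and 1.60, 1.93 and 2.07 CPM in Cb-T, or 4 reads in all against 136. The ratio was 30.8 (95% interval 11.8 to 115, counting error only; FDR = 4.14e-13 for the fitted change). In F/M it had 0, 0.09 and 0.0423 CPM in controls and 0.350, 0.538 and 0.471 CPM in mutants, or 3 reads against 32, a ratio of 10.4 (3.27 to 53.3). It was under the filter on low counts there, and without that filter it was called higher (FDR = 0.000118). *Tgm1* shares 5.76% of its exon bases with an antisense gene, and whether the counting used strand is not given in the sources used here. *Ptx3*, a long pentraxin that binds complement, was at 0.133, 0.275 and 0.186 CPM in Cb-N and at 0.548, 0.805 and 0.580 CPM in Cb-T, without overlap (log2 fold change 1.70 ± 0.43, FDR = 0.00101). In F/M, *Ptx3* was at 0.304 to 0.450 CPM in controls and 0.171 to 0.525 CPM in mutants, which overlapped and were not tested.

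*Cd109*, a surface protein that binds TGF-β, was at 2.62, 1.74 and 1.90 CPM in Cb-N and at 6.54, 6.44 and 7.04 CPM in Cb-T. In F/M, it was at 2.30, 2.61 and 3.09 CPM in controls and at 3.37, 4.10 and 3.68 CPM in mutants. Both areas were without overlap, and the change was 3.21-fold in Cb and 1.42-fold in F/M, the latter under the limit (FDR = 1.49e-13 and 0.0207). *S100a10*, the partner of annexin A2, was at 14.99, 14.0 and 14.7 CPM in Cb-N and at 22.9, 21.9 and 22.3 CPM in Cb-T, a change of 1.55-fold that was just over the limit. In F/M, it was at 17.0, 15.3 and 15.9 CPM in controls and at 17.1, 14.5 and 18.4 CPM in mutants, which overlapped.

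*Ptgs2*, which encodes the prostaglandin synthase COX-2, had changes of opposite sign in the areas. It was at 0.843, 0.733 and 0.603 CPM in Cb-N and at 1.60, 1.33 and 1.91 CPM in Cb-T, again apart (log2 fold change 1.15 ± 0.26, FDR = 0.000213). In F/M, it was at 22.8, 25.1 and 21.6 CPM in controls and at 16.4, 17.1 and 18.4 CPM in mutants, without overlap. That log2 fold change of -0.39 ± 0.07 had an FDR of 0.000351 but was under the fold limit.

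The other 6 A2 genes were not called in either area. *B3gnt5*, a glycosyltransferase of glycolipid synthesis, was at 32.3, 34.2 and 33.9 CPM in Cb-N and at 27.7, 28.3 and 26.7 CPM in Cb-T, and its log2 fold change of -0.27 was under the limit (FDR = 2.19e-05). *Tm4sf1* and *Emp1*, membrane proteins with several membrane spans, had log2 fold changes of 0.30 and 0.38 in Cb and of -0.14 and 0.28 in F/M. *Sphk1*, a sphingosine kinase, had values of 0.02 in Cb (95% interval -0.21 to 0.25) and -0.02 in F/M (-0.30 to 0.25). *Clcf1*, a cytokine of the CNTF family, had values of -0.03 (-0.33 to 0.27) and 0.13 (-0.26 to 0.53). *Slc10a6*, a transporter of sulfated steroids, was at 0 in all 3 Cb-N libraries and at no more than 0.0856 CPM in any library. That is under the 0.123 to 0.140 CPM to which 3 reads amount here, and it was tested in neither area.

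**Figure D3:**
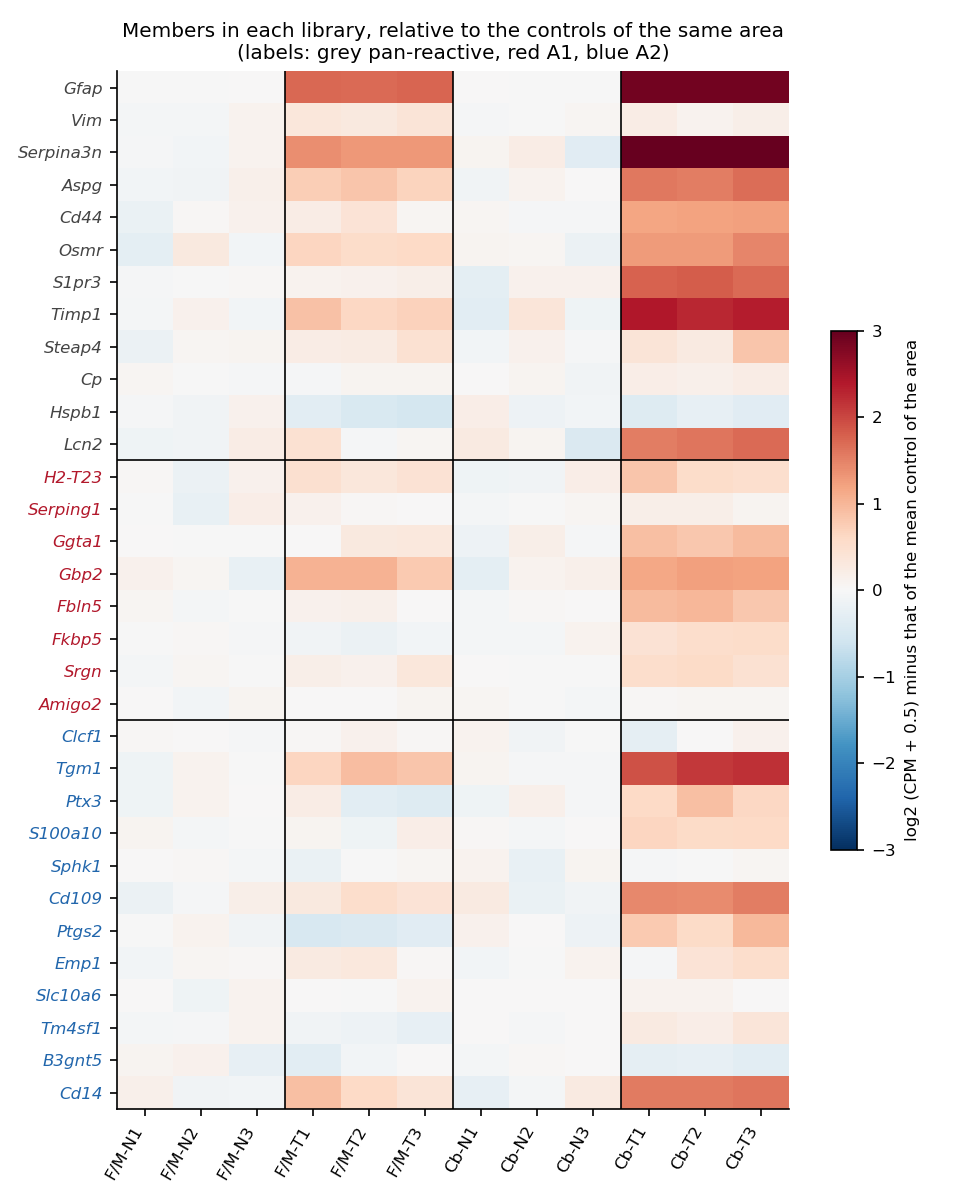
Members (rows) in each of the 12 libraries (columns), as log2 (CPM + 0.5) minus the same for the mean control of that area. Red is above and blue below the controls, and the scale ends at 3 on both sides. The 3 libraries of a group look alike in nearly all rows, and the Cb-T block holds more rows in deep red than the F/M-T block.

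In 15 of the 31 members, the Cb change exceeded the F/M change when the difference itself was tested (an interaction of area and genotype over all 12 libraries, at the same limits), and smaller for none. Of the 17482 genes tested, 6.41% were called in this direction, 1.2% in the other and 7.61% in either. The 15 comprised 8 of 12 pan-reactive, 3 of 8 A1 and 4 of 11 A2 genes. In the fit over 12 libraries, *Lcn2*, *Ptx3* and *Tgm1* passed the filter on low counts only through Cb-T, where they were high. Without them, 13 of 28 were called (7 of 11 pan-reactive, 3 of 8 A1 and 3 of 9 A2 genes), beside 6.39% of all genes that pass without Cb-T. Among these 28, the largest differences on the log2 scale were those of *Serpina3n* (2.97 ± 0.11) and *S1pr3* (1.74 ± 0.13), and *Gfap* had 1.17 ± 0.03. The calls of *Lcn2* and *Timp1*, which had few reads in F/M, were lost when 1 library was left out: without F/M-N replicate 3 for *Lcn2* (1.54, FDR = 0.241), and without F/M-N replicate 2 (1.31, FDR = 0.187) or Cb-N replicate 1 (1.27, FDR = 0.116) for *Timp1*. *Fkbp5*, called in neither area alone, differed by 0.65 ± 0.09 (FDR = 4.21e-06), and without Cb-T replicate 3 the value was 0.58, just under the limit.

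In control mice, Cb-N against F/M-N gave 17 of 31 members called, 9 higher and 8 lower in Cb, where 19.2% of all genes were called higher, 23.2% lower and 42.4% in either direction. The areas differ in so many genes that these counts show nothing particular to the members. *B3gnt5* (log2 difference 4.34) and *Vim* (2.43) were the furthest above, and *Ptgs2* (-4.98), *Serpina3n* (-2.57) and *Fkbp5* (-2.28) the furthest below. In the mutants, a comparison added after the values were seen, 15 members were higher in Cb-T than in F/M-T and 4 were lower (*H2-T23*, *Ggta1*, *Fkbp5* and *Ptgs2*), beside 17% and 18.9% of all genes (35.9% in either direction). Without *Lcn2*, *Ptx3* and *Tgm1*, which passed the filter only through Cb-T, 12 of 28 were higher and 4 lower, beside 16.4% and 19.2% of all genes that pass without Cb-T. All 12 pan-reactive genes, *Lcn2* included, were higher in Cb-T than in F/M-T with an FDR under 0.1 (40.1% of all genes) and without overlap of the libraries (38.7% of all genes). In controls, 5 pan-reactive genes were without overlap higher in Cb and 5 lower (38.4% and 38.5% of all genes).

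For 8 of the 31 members tested over the 12 libraries the order of the areas turned, with all 3 Cb libraries below all F/M libraries in controls and above them in mutants, as for 0.772% of the 17482 genes tested. *Gfap* went from a log2 difference of -0.27 between the control areas to 0.90 between the mutant areas, *Serpina3n* from -2.57 to 0.40, *S1pr3* from -1.34 to 0.40, *Aspg* from -0.41 to 0.54, *Osmr* from -0.50 to 0.29 and *Cd14* from -0.75 to 0.43. The others were *S100a10* (-0.14 to 0.43) and, at low counts, *Ptx3* (-0.92 to 1.10). These differences share libraries with those between genotypes above and are no separate evidence. *Ptx3*, and *Lcn2* and *Tgm1* among the 31, passed the filter on low counts only through Cb-T, where they were high. The turn of *Ptx3* was thus favored in advance, and no share was computed over genes that pass without Cb-T.

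**Figure D4:**
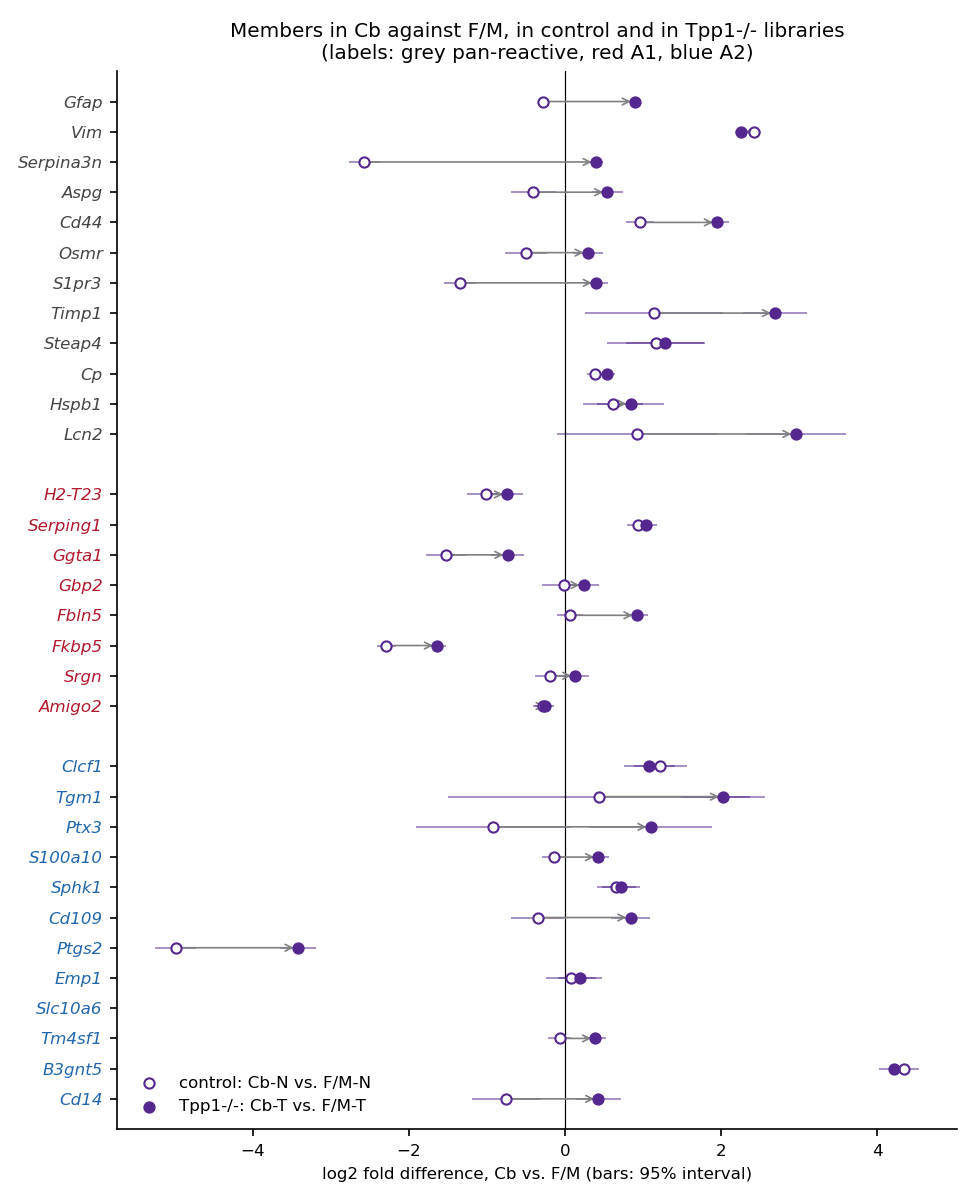
Log2 difference between Cb and F/M for each member in control mice (open points) and in *Tpp1*-/- mice (filled points), with 95% intervals as bars and an arrow from the control to the mutant value. Most arrows point right, and those of *Gfap*, *Serpina3n*, *Aspg*, *Osmr*, *S1pr3* and *Cd14* start left and end right of 0.

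Levels can be compared between genes only per length of transcript. On the scale of mean CPM per kilobase of annotated exon, *Gfap* was the highest member in F/M-N (43.8), F/M-T (145) and Cb-T (271), and *Vim* the highest in Cb-N (42.2, with *Gfap* at 36.2). *Serpina3n* went from 1.64 in Cb-N to 32.7 in Cb-T, where it lay below *Gfap* and *Vim* (47.5) and above *S100a10* (18.5). *Timp1* reached 4.90 and *Tgm1* 0.591 in Cb-T.

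The 14 homeostatic astrocyte genes are not confined to resting astrocytes, and the study cites reports that *Aqp4* rises after brain injury. Of the 14, 1 (*Aqp4*, the water channel of end feet) was called higher in Cb, with a log2 fold change of 0.79. In F/M, 0 passed both limits in the edgeR test, 11 had an unadjusted p under 0.05 (share of all genes not computed), and *Aqp4* was again the highest at 0.49. These calls are no more frequent than among all genes (8.54% and 2.63% higher). By FDR alone, 12 were higher and 1 lower in Cb, where 29.8% of all genes were higher and 27.9% lower by that rule, and 11 were higher in F/M, where 12.8% were higher and 14.4% lower. Their median log2 fold changes were 0.27 in Cb and 0.15 in F/M, against 0.71 and 0.22 over the members whose control libraries alone pass the filter (0.97 and 0.26 over all tested). In F/M, the median was 0.20 for A1 genes and 0.08 for A2 genes, so that the A2 median was below that of the homeostatic genes, and the difference between the lists was not tested. The summed level of the 14 was 9558 to 9633 CPM in Cb-N, 11250 to 11277 CPM in Cb-T, 8533 to 8819 CPM in F/M-N and 9183 to 9613 CPM in F/M-T, so astrocyte transcripts were plentiful in every group. Of the members whose control libraries alone pass the filter, 12 of 27 had a larger log2 fold change than any homeostatic gene in Cb, and 7 of 26 in F/M, of which 4 were pan-reactive, 1 was A1 and 2 were A2.

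Other genes known from reactive astrocytes, the signals that induce them and the receptors for these signals were read as 3 further lists. Of 12 other reactive astrocyte genes, 8 were higher in Cb, among them *C3* (log2 fold change 3.52), *C4b* (3.11) and *Cxcl10* (2.93), and 7 in F/M, among them *Cxcl10* (4.14), *Lgals3* (2.03) and *C4b* (1.65). Of these, *Cxcl10* passed the filter only through the mutants in both areas, and without it 7 of 11 and 6 of 11 were higher. The complement genes *C3* and *C4b* and the chemokine *Cxcl10* are made by microglia as well. Of 13 inducing signals, 7 could be tested in Cb and 6 in F/M, of which 6 and 5 were higher. The cytokine genes *Il1a* (2.77) and *Lif* passed the filter in Cb only through Cb-T, and without them 4 of 5 were higher there. The complement genes *C1qa* (2.68) and *C1qb* (2.52) had the largest changes in Cb among those 5, and in F/M *C1qa* and *C1qb* (1.18 each) and *C1qc* (1.10). Of 17 receptors and transducers, 3 were higher in Cb, *Tnfrsf1a* (0.98), *Tgfbr1* (0.84) and *Tgfbr2* (0.61). In F/M, the log2 fold changes of the 17 ranged from -0.21 to 0.58 and 0 passed both limits in the edgeR test. By FDR alone 6 passed (3 higher and 3 lower), beside 12.8% higher and 14.4% lower among all genes. An unadjusted p under 0.05 was found for 8, and the share of all genes by that rule was not computed. The median over the 17 was 0.04 in Cb and -0.02 in F/M.

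**Figure D5:**
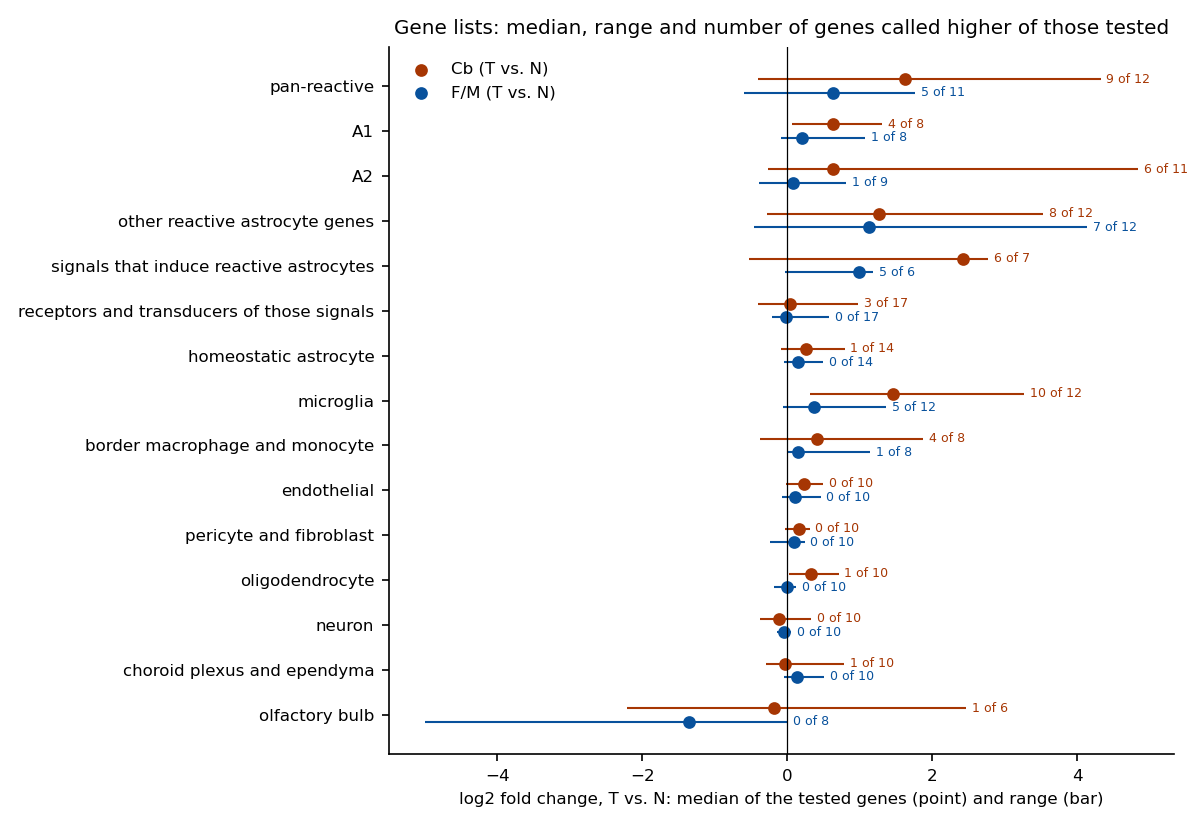
Median (point) and range (bar) of the log2 fold change, T against N, over the tested genes of each list in Cb (brown) and F/M (blue), with the number called higher of those tested. The pan-reactive list, the other reactive genes, the inducing signals and the microglial list lie furthest right, and the medians of the endothelial and neuronal lists lie between -0.11 and 0.24. Hindbrain Hox genes are not drawn.

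Lists of markers of other cells and regions were counted in the same way, and the shares of all genes that passed the FDR limit alone are those given for the homeostatic genes. No share of all genes was computed for counts by unadjusted p. Microglial genes were higher for 10 of 12 in Cb and 5 of 12 in F/M, and none of the 12 was at 0 in any group. Of 8 tested border macrophage and monocyte genes, 4 were higher in Cb and 1 in F/M, but 3 of the 8 (*Pf4*, *Ccr2* and *Ms4a7*) did not pass the filter by the control libraries alone in either area, and of the other 5 there were 2 higher in Cb and 0 in F/M. Endothelial genes, and pericyte and fibroblast genes, gave no call past both limits in either area among 10 of each, with medians of at most 0.24, although by FDR alone 7 endothelial and 6 pericyte and fibroblast genes were higher in Cb, and 4 and 2 in F/M. In Cb, 1 of 10 oligodendrocyte genes passed both limits and 9 were higher by FDR alone, and the list summed to 4826 to 4935 CPM in Cb-N and 6292 to 6355 CPM in Cb-T. In F/M, 1 oligodendrocyte gene was higher and 2 were lower by FDR alone. Of 10 neuronal genes, 0 passed both limits in the edgeR test in either area, but by FDR alone 6 were lower and 2 higher in Cb, and 4 were lower in F/M, with 8 and 5 at an unadjusted p under 0.05. The neuronal sum was 7589 to 7665 CPM in Cb-N, 6879 to 7006 CPM in Cb-T, 10205 to 10268 CPM in F/M-N and 9550 to 9645 CPM in F/M-T. Of 10 choroid plexus and ependyma genes, 1 passed both limits in Cb, where 4 were higher and 3 lower by FDR alone, and 1 was higher by FDR alone in F/M. Of the 13 Hox genes, 10 passed the filter in Cb, all of them only through Cb-T, so that their calls were fixed by the filter and the sums given above stand in their place. The Hox sum was no more than 0.0846 CPM in any F/M library. Olfactory bulb genes summed to 169 to 172 CPM in F/M-N and 126 to 127 CPM in F/M-T, with 6 of 8 lower. In Cb, the same list summed to 68.3 to 72.2 CPM in Cb-N and 29.8 to 33.1 CPM in Cb-T, with *Eomes*, which unipolar brush cells of the cerebellum also express, lower (-2.20) and *Cdhr1*, which passed the filter only through Cb-T, at 2.47. The tissue taken and the genotype cannot be told apart for the Hox and olfactory bulb lists, and the part of any of these lists in the members' changes was not tested.

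The libraries were of similar depth, at 21428379 to 24458189 counted reads, and no library stood apart from its group. Over members with at least 50 reads in every library of a group, the median coefficient of variation between replicates was 4.02% to 6.39%. With 3 libraries a group from separate mice, p-values reflect the spread among these mice.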

How the data were processed

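RNA from Cb and F/M of 3 male *Tpp1*-/- and 3 wild-type mice was sequenced as stranded mRNA libraries (TruSeq, single-end reads) by the authors, aligned with STAR to the GRCm38 mouse genome and counted per gene with featureCounts (version 1.26.1, per the labels). The STAR version differs between the submitters' processing notes and the study's methods and is left out. The strand setting, the annotation release and the treatment of reads matching several genes are not given in the sources used here. The deposited values are raw counts per gene, with totals of 21428379 to 24458189 per library.

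Counts were analyzed with edgeR 4.0.16 in R 4.3.3. Genes were kept by filterByExpr (minimum count 10, minimum total 15) within the libraries of each fit, normalized by TMM and tested with the quasi-likelihood F test, with Benjamini-Hochberg adjustment over all genes tested. Genotypes were compared within each area over 6 libraries. The interaction and the comparisons of areas used 12 libraries in 4 groups. Calls needed FDR < 0.1 and a change of at least 1.5-fold, the limits of the study. Standard errors were derived from the fold change and its F statistic, and 95% intervals span 1.96 standard errors to each side. CPM use TMM factors over all 12 libraries. With 3 reads taken as the floor, the precision ends at 0.123 to 0.140 CPM, and count intervals cover counting error only. The members and lists were chosen with earlier results of these data known. All 32 members are named; values per library are given for members called in Cb, in F/M or in the interaction and for examples that were not called, and of each other list at most the 3 genes with the largest absolute change in an area. *Chi3l1* and *Pcdh21* of those lists were not found by symbol. A further gene of those lists is not reported here and was left out of its list's counts and medians. The fit was tested on simulated data.

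Replicates were compared by chi-square per degree of freedom of their counts (1.28 to 3.59), so no pair agreed within counting noise. Both areas were taken from the same mice by the study's methods, but no source says that a replicate number marks a mouse, and the correlations of deviations of same-numbered libraries (-0.03 to 0.11) did not all exceed 0.1, so the main fits have no block. Gene positions and exon lengths came from GENCODE vM21 (GRCm38) and promoters from RefSeq (GRCm38.p6). Alternatives were DESeq2 1.42.0, limma 3.58.1 (voom), RLE scaling, other filters and limits, a replicate block, 1 fit over all libraries and leaving out each library.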

Additional observations from a re-analysis of the deposited data

Results flagged for a closer look

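For 15 members the response to *Tpp1* loss differed between the areas by the interaction test of edgeR over all 12 libraries, and in all of them the value for Cb was the higher of the pair. The difference of the log2 fold changes (Cb minus F/M) among pan-reactive genes was 1.17 for *Gfap*, 2.97 for *Serpina3n*, 0.95 for *Aspg*, 0.98 for *Cd44*, 0.79 for *Osmr*, 1.74 for *S1pr3*, 1.55 for *Timp1* and 2.03 for *Lcn2*. Among A1 genes, it was 0.79 for *Ggta1*, 0.85 for *Fbln5* and 0.65 for *Fkbp5*. Among A2 genes, it was 2.02 for *Ptx3*, 1.19 for *Cd109*, 1.56 for *Ptgs2* and 1.18 for *Cd14*. Of all 17482 genes tested, 6.41% were called in this direction. The 3 with the weakest test were *Timp1* (FDR = 0.0476), *Lcn2* (0.0344) and *Ptx3* (0.0223), which had few reads in F/M. *Lcn2* and *Ptx3* passed the filter on low counts only through Cb-T, where they were high, and without such members 13 of 28 were called, beside 6.39% of all genes that pass without Cb-T. The difference was tested in these 12 libraries only, in which all Cb-T libraries also carry Hox transcripts (13.7 to 14.5 CPM in sum) and in which olfactory bulb genes were at 126 to 127 CPM in F/M-T and 169 to 172 CPM in F/M-N in sum (6 of 8 lower), so that in both areas the tissue taken and genotype cannot be told apart.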

How the results depend on the processing

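Calls of members in Cb were steady: 19 under the replicate block and 19 to 20 when 1 library was left out (pan-reactive 8 to 9, A1 4 to 5, A2 6). In F/M, 8 were called in either direction, 8 under the replicate block and 7 to 9 without 1 library (pan-reactive 4 to 6, A1 1, A2 1 to 3). The interaction had 15, 15 under the replicate block and 14 to 16 without 1 library (pan-reactive 7 to 8, A1 2 to 3, A2 4 to 5). Cb-N against F/M-N had 17, 16 with the block and 15 to 18 (pan-reactive 6 to 8, A1 4, A2 5 to 6), and Cb-T against F/M-T 19, 19 with the block and 19 to 20 (pan-reactive 7 to 8, A1 5, A2 7 to 8). The block changed no call of a member other than that of *Ptx3* between control areas (FDR = 0.114).

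Without a fold limit, A1 calls in Cb were 7, F/M calls 15 (A1 4, A2 3), pan-reactive calls between control areas 11, and calls between mutant areas 29 (pan-reactive 12). With a limit of 2-fold, A1 calls in Cb were 2, F/M calls 4 (pan-reactive 3, A2 0), interaction calls 9 (pan-reactive 5, A1 0), calls between control areas 11 (A2 3) and between mutant areas 12 (A1 2). With a mean count of at least 50, A2 calls in Cb were 3, and pan-reactive calls 4 between control areas and 3 between mutant areas, since fewer members were tested. Without a filter on low counts, or with 1 fit over all 12 libraries, A2 calls in F/M were 2, the other call being that of *Tgm1*. Under DESeq2, limma-voom, RLE scaling or an FDR limit of 0.05, no count of called members, in all or by class, moved by over 1.5 times.

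Some values that were not called, most of them near 0, changed sign when some library was left out. In Cb, *Clcf1* ranged from -0.14 to 0.086 and *Sphk1* from -0.092 to 0.080, and in F/M *Serping1* from -0.0091 to 0.20 and *Sphk1* from -0.089 to 0.056. In the interaction, *Amigo2* ranged from -0.034 to 0.069 (and was -0.019 with a mean count of at least 50), *Serping1* from -0.016 to 0.19, *B3gnt5* from -0.24 to 0.016, *Sphk1* from -0.046 to 0.13, *Steap4* from -0.19 to 0.27 and *Emp1* from -0.055 to 0.23. Between control areas, *Gbp2* ranged from -0.13 to 0.13 and *Tgm1* from -0.10 to 1.30 (0.43 ± 0.99 with all libraries). The cause of these moves was not tested. Under DESeq2, *Timp1* in F/M and *Ptx3* in the interaction had no adjusted p. Depth limits *Lcn2*, *Tgm1*, *Ptx3* and *Slc10a6*, which had 0.538 CPM or less in every control and every F/M library.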
